A study of Mus musculus with 4 samples.

Results

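The nuclear-encoded respiratory chain was followed as 84 of the 31053 genes counted in single nuclei of the mouse kidney. The rule for members reads gene symbols and no measured value. It takes the Nduf genes, placed in complex I by symbol (37 genes), and the Sdh subunits of complex II (4 genes). It also takes the Uqcr subunits of complex III (8 genes) and the Cox4 to Cox8 subunits of complex IV (18 genes). The Atp5 genes were placed in complex V by symbol (17 entries, 2 of them for Atp5o). Pseudogene and antisense symbols were left out. Single-nucleus RNA-seq, which counts RNA molecules of single nuclei by unique molecular identifiers (UMIs), was made from 12-week-old male mice, 1 library per mouse, after much of the cortex had been trimmed from a middle slice of the kidney. The 2 control mice were Cre-negative with the genotype Tfap2a fl/fl, and the 2 knockout mice were Hoxb7Cre+;Tfap2a fl/fl. All 4 mice therefore carried the floxed alleles of Tfap2a, an AP-2 transcription factor, and the groups differed in the Cre transgene. Hoxb7Cre is active in cells of ureteric origin, among them those of the collecting duct. No group carried the Cre without floxed alleles, so an effect of the Cre itself and of the lost gene cannot be told apart. All tissue was kept in RNAlater before nuclei were released.

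The respiratory chain sits in the inner mitochondrial membrane. Complexes I and II pass electrons from NADH and succinate to ubiquinone, complex III passes them on to cytochrome c, complex IV hands them to oxygen, and complex V makes ATP from the proton gradient that complexes I, III and IV build. Most subunits are encoded in the nucleus and a small set in mitochondrial DNA. In the kidney this ATP pays for sodium transport, and mitochondria are dense in the proximal tubule, the thick ascending limb and the distal convoluted tubule, while the inner medulla is poor in oxygen and leans on glycolysis.

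The libraries held 22179410 to 44964099 UMIs, and 27341 nuclei passed the filters, with median UMIs per nucleus of 2505 to 2797. Of these, 25055 nuclei fell into 12 classes named by marker genes: PT for the proximal tubule, TL for the thin limbs, TAL for the thick ascending limb, DCT for the distal convoluted and CNT for the connecting tubule, CD-PC and CD-IC for principal and intercalated cells of the collecting duct, DMEP for the epithelium of the pelvis deep in the medulla, Podo for podocytes, and EC, IntC and ImC for endothelial, interstitial and immune cells. None of the members (0 genes) was among the genes used for clustering, so the classes were not built from them. The libraries share 7 to 18 barcodes per pair of libraries, at most 0.332% of the smaller library. Libraries differed in free RNA: the median empty droplet had 254 UMIs in control mouse 1, 105 in control mouse 2, 300.5 in knockout mouse 1 and 35 in knockout mouse 2. Levels are given as CPM, UMIs per 1000000 UMIs of the same class and mouse. The members summed to 51080, 44265, 52665 and 41472 CPM in the empty droplets in the same order of mice, against 15120, 10193, 16089 and 9805 CPM in the named classes. Members were thus a larger part of free RNA than of nuclear RNA in all 4 libraries, and control mouse 1 and knockout mouse 1 had higher member levels than the other two.

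In these counts the knockout could not be checked on Tfap2a itself, because the deleted exons (5 and 6) lie inside the gene and UMIs are read from the 3′ end of the RNA. The study did check it by PCR on cDNA, which gave a shortened product in knockout mice. It found intact Tfap2a mRNA absent from their papillary tissue. In CD-PC, Tfap2a was at 57.1 and 97.96 CPM in control mice and 65.4 and 103.3 in knockout mice, and in CD-IC at 71.8 and 88.3 against 75.9 and 60.5. In CNT it was at 117 and 127 CPM in control mice and 73.4 and 74.9 in knockout mice, without overlap (log2 fold change -0.72 ± 0.29, unadjusted p = 0.035, adjusted p = 1.00 by edgeR). In DMEP, Tfap2a had 10 and 11 UMIs in the controls and 0 and 0 in the knockouts (edgeR's quasi-likelihood test, adjusted p = 0.866).

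Of the 84 members, 81 had at least 10 UMIs over the control mice and were tested across segments. The other 3, Cox4i1, Ndufa13 and Cox8c, were listed at 0 UMIs. Cox4i1 and Ndufa13 encode subunits that every respiring cell uses, so no level was drawn from their 0. Atp5o is listed under 2 identifiers with the same position, and the split of its reads between them is uncertain.

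Which nephron segments have nuclei rich or poor in these transcripts was addressed first in the control mice. Levels in whole cells were not measured. A cluster of damaged nuclei with 10 of 10 PT markers entered no class. It held 43309.4 and 36918.5 CPM of members in control mice 1 and 2. The members summed to 11759 and 6463 CPM in PT of control mice 1 and 2, the lowest of the 7 tubule classes in both. PT of the knockout mice, outside the domain of the Cre, held 12740 and 6719 CPM and was again lowest. As a ratio to the mean of the other 6 tubule classes, PT was at 0.550, 0.476, 0.525 and 0.476 in the controls (mice 1 and 2) and the knockouts (mice 1 and 2), and it was also lowest in each mouse after free RNA was subtracted, a step added after the data were seen. Among the 7 tubule classes, PT nuclei also held fewest member UMIs per nucleus in all 4 mice, with 37.7, 24.1, 40.2 and 23.4. EC nuclei, outside the tubule, held fewer still, with 28.9, 16.5, 31.6 and 19.8. So did ImC nuclei, with 29.6, 16.9, 29.3 and 20.9, and IntC nuclei in each mouse except knockout mouse 2, with 30.7, 20.6, 31.7 and 24.9.

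The TAL held 23781 and 13691 CPM of members in control mice and 24986 and 18861 in knockout mice. CD-IC, the acid- and base-secreting cells of the collecting duct, held 22913 and 14594 in control mice and 26868 and 13922 in knockout mice. CD-PC, the water- and sodium-reabsorbing cells, held 19978 and 15962 in control mice and 23383 and 14712 in knockout mice. The order among these 3 classes was not the same in the 4 mice, and their values overlapped. CD-PC joined 235 and 252 inner medullary nuclei with 107 and 233 nuclei with the sodium channel in control mice 1 and 2. The former held 19156 and 15465 CPM of members and the latter 22734 and 16726. The part of this make-up in the CD-PC values was not tested. Per nucleus, CD-PC were highest among tubule classes in each mouse, with 80.9 and 62.8 member UMIs in control mice and 88.8 and 53.5 in knockout mice. Among tubule classes, CD-PC nuclei also held the most UMIs of all genes, with 3637 to 4048 per nucleus over the 4 mice, against 3155 to 3723 in PT.

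**Figure D1:**
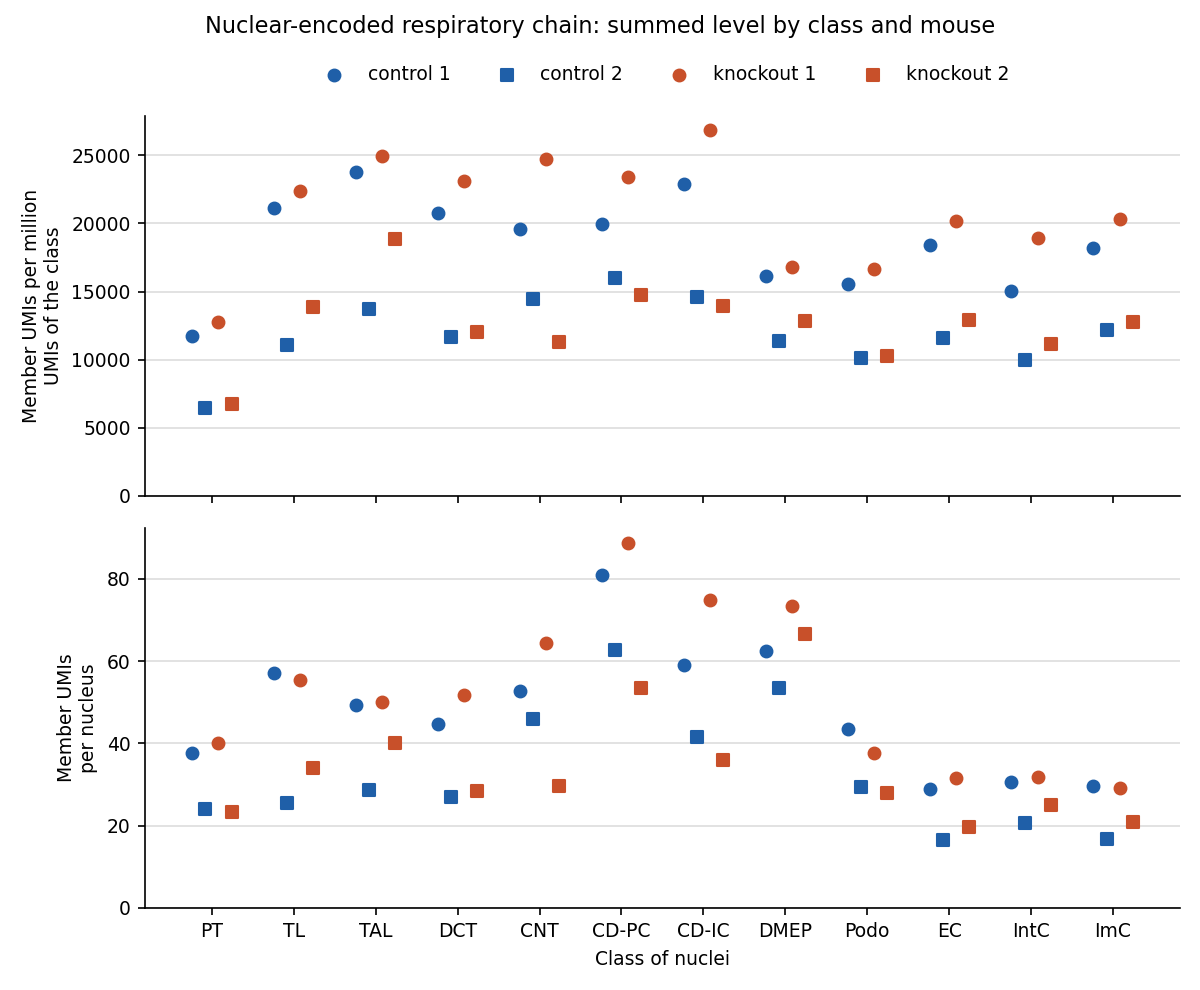
Summed CPM of the 84 members (top) and per nucleus (bottom, UMIs) for the 12 classes, with 1 point per mouse (blue control, orange knockout; circle mouse 1, square mouse 2). PT was the lowest tubule class in every mouse on both scales, CD-PC were the highest tubule class per nucleus, and mouse 1 of each genotype lay above mouse 2 in CPM in each of the 12 classes.

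For each member the level in a tubule class was set against the average log2 level fitted over the other 6 classes, with the mouse as a term, and called at an adjusted p under 0.05 over all 17906 genes tested (edgeR's quasi-likelihood test, Benjamini-Hochberg). The class sums of 1 mouse share a library, and with 2 control mice the p-values rest on how the classes scatter within these mice. In PT, 52 of 81 members were lower and 2 higher, where 17.9% of all genes were lower and 28.8% higher. The median member was at -0.55 on the log2 scale, against 0.25 for the median gene, a difference of -0.81. Without TMM, the scaling factor that evens out composition between libraries, both medians moved down, to -0.88 and -0.06.

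In the TAL, 29 of 81 members were higher and 0 lower, where 13.5% of all genes were higher and 7.11% lower, with a median of 0.31 against 0.13. No member was lower there at an unadjusted p under 0.05 either (0 of 81). CD-PC had 24 members higher and 12 lower, beside 22.0% and 14.2% of all genes, and the members' own shares were 29.6% and 14.8%. TL had 3 higher and 16 lower, beside 10.6% and 8.27% of all genes. DCT had 3 higher and 1 lower (7.46% and 5.07% of all genes), CNT 2 higher and 1 lower (6.06% and 3.18%), and CD-IC 3 higher and 0 lower (7.54% and 5.51%). The split in CD-PC turned with the reference: 13 members were higher and 15 lower with PT left out of the mean, and 30 higher and 9 lower without TMM. In TL the split without TMM was 4 higher and 6 lower. In DCT it was 3 and 2 with PT left out, and in CNT 1 and 1 under either change. The CD-PC median changed sign between the mice, at 0.41 without control mouse 1 and -0.13 without control mouse 2, while the PT median was below 0 (-0.76 and -0.49) and the TAL median above 0 (0.26 and 0.43) either way. Counts in the TAL fell to 15 with DESeq2, 15 with free RNA subtracted by markers and 6 with only nuclei under 1% mitochondrial UMIs, and those in TL and CD-PC to 4 under the last filter and 22 under the marker subtraction.

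**Figure D2:**
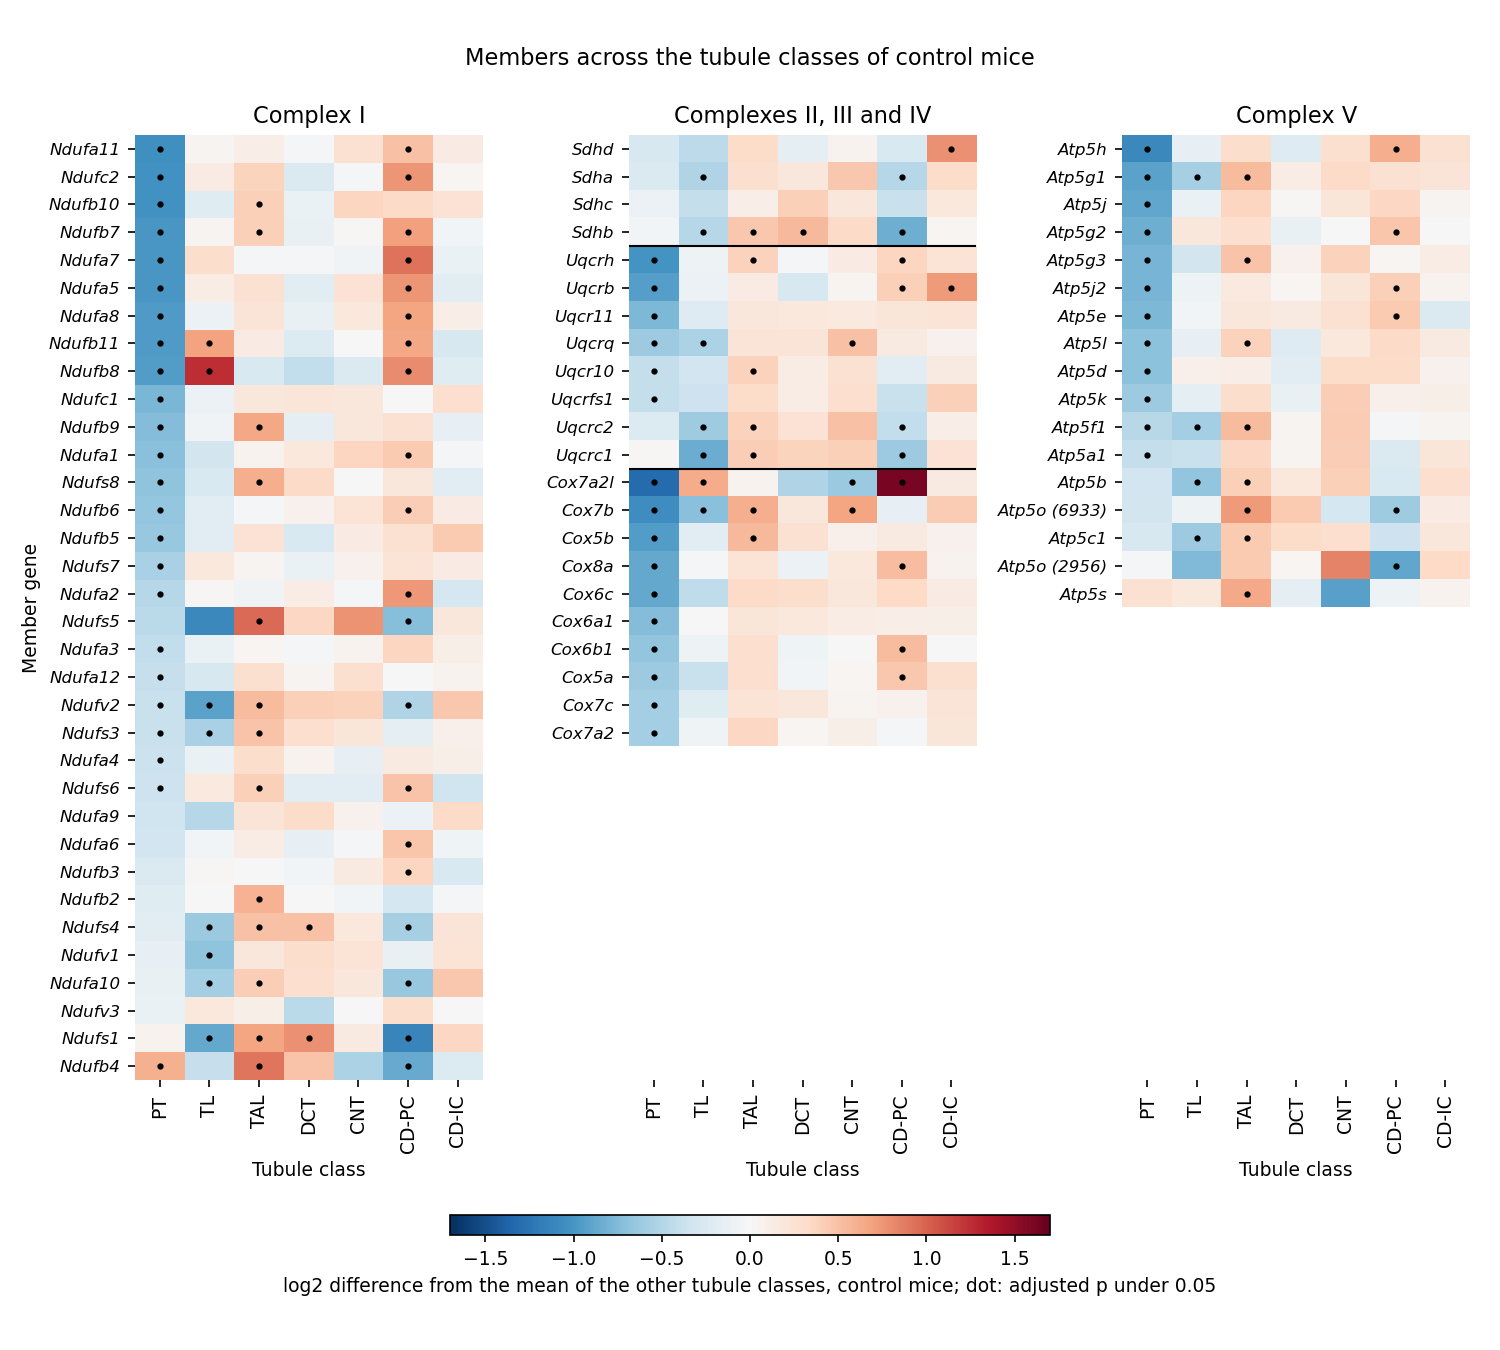
Log2 difference of each member from the mean of the other 6 tubule classes in control mice, for 73 of the tested members with at least 300 UMIs, by complex and sorted by the value in PT. Dots mark an adjusted p under 0.05; the PT column is mostly lower, the TAL column holds no lower call, and the CD-PC column splits within complex I.

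The promoters of the members were searched for the letters of 4 factors tied to respiratory genes, on both strands, in RefSeq windows from 250 bases before to 50 bases after the start (GRCm38.p6). Of the 84 members, 68 had such a window, and 38 of these held at least 1 of the 4 strings. The string of NRF1, whose matches are the runs of 10 capitals printed below, was in 17 members (25%, against 5.19% of 27025 genes), the ETS string CCGGAAG in 16 (23.5% against 9.93%), the YY1 string AAGATGGC in 10 (14.7% against 3.19%) and the string AAGGTCA of estrogen-related receptors in 8 (11.8% against 5.38%). The ETS and YY1 strings can share the letters AAG, and 1 member held both. A match is a description and not a bound site. Of the members with a string, 7 of 17 (NRF1), 6 of 16 (ETS), 3 of 10 (YY1) and 5 of 8 (estrogen-related receptors) were higher in the TAL, against 18 of 51, 19 of 52, 22 of 58 and 20 of 60 without it. In the same order, 9, 14, 8 and 4 of those with a string were lower in PT, against 36, 31, 37 and 41 of those without. No test was made of these splits. Stretches before the start of 4 members are printed beside their values below, 5′ to 3′ on the strand of the gene, which is the minus strand for each. They were picked after the values were seen, because their segment profiles differ and their windows hold more than 1 string. Capitals in them mark the strings on either strand, so that the estrogen-related receptor string reads AAGGTCA or TGACCTT and the ETS string CTTCCGG.

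Complex I was split by the part a subunit plays. Of its core subunits, 7 are encoded in the nucleus, Ndufs1 among them, and form the part that carries electrons from NADH. This grouping was drawn up after the values were seen. In the TAL 5 of 7 core subunits were higher, in TL 4 were lower, and in CD-PC 2 were lower and 0 higher, where 13.5%, 8.27%, 14.2% and 22.0% of all genes were so called. Of the 29 accessory members tested, which include Ndufa4 and Ndufa4l2 by symbol, 14 were higher and 4 lower in CD-PC, 9 were higher in the TAL and 19 lower in PT, where the shares of all genes were 22.0%, 14.2%, 13.5% and 17.9%. The 4 lower in CD-PC are near the share of all genes. The medians of core and accessory subunits in CD-PC were -0.15 and 0.37, beside 0.15 over all genes, and the difference between the 2 sets was not tested.

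Ndufs1, the largest core subunit, which binds iron-sulfur clusters, lies on chr1:63143592-63176822 (GRCm38.p6). It was at 235 and 196 CPM in the TAL of control mice 1 and 2, 252 and 215 in DCT, and 220 and 183 in CD-IC. CD-PC held 83.1 and 74.4 CPM, and TL 113.8 and 84.7. The 2 control mice gave the same picture, with TAL, DCT and CD-IC above CD-PC and TL without overlap. The log2 difference was 0.67 ± 0.14 (SE) in the TAL, 0.77 ± 0.18 in DCT, -1.12 ± 0.17 in CD-PC and -0.88 ± 0.20 in TL (adjusted p = 4.3e-05, 2.0e-04, 1.6e-09 and 9.5e-05 by edgeR). In PT it did not pass the test (0.06 ± 0.15, adjusted p = 0.80), while 5 of 7 core subunits were lower there.

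Ndufb8, an accessory subunit of the membrane arm, was at 156 and 150 CPM in CD-PC and 260 and 184 in TL of control mice 1 and 2, against 58.4 and 31.2 in PT and 97.7 and 60.7 in the TAL. Its log2 difference was 0.81 ± 0.15 in CD-PC, 1.26 ± 0.17 in TL and -0.94 ± 0.16 in PT. Ndufa7 was at 328 and 313 CPM in CD-PC and 111 and 60.1 in PT, a log2 difference of 0.93 ± 0.14 in CD-PC. Both were highest in CD-PC and TL in each control mouse, though Ndufa7 did not pass the test in TL (0.30 ± 0.17). Ndufc2 (0.74 ± 0.15) and Ndufa5 (0.74 ± 0.15) were the next in CD-PC, and Ndufb11 was higher in TL (0.69 ± 0.16). In PT the lowest among the complex I members called were Ndufa11 (-1.04 ± 0.16), at 76.7 and 32.8 CPM, and Ndufc2 (-1.03 ± 0.16), at 82.9 and 42.3.

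All 4 accessory subunits that were lower in CD-PC, Ndufa10, Ndufb4, Ndufs4 and Ndufs5, were higher in the TAL. Ndufb4 was at 47.6 and 52.8 CPM in the TAL and 23.1 and 15.2 in CD-PC, with log2 differences of 0.91 ± 0.18 and -0.85 ± 0.24. It was also the only complex I member higher in PT (0.60 ± 0.17, adjusted p = 0.0015). Ndufs5 was low everywhere, at 31.1 and 28.4 in the TAL and 13.003 and 10.5 in CD-PC, and had the largest log2 difference in the TAL (0.97 ± 0.22) among the members called. Empty droplets of control mice 1 and 2 held Ndufs5 at 2.53 and 2.35 CPM, below its level in these nuclei. The members as a sum were higher in empty droplets than in nuclei, and the reason for this difference was not tested. Ndufb9, which had the most UMIs of the Nduf genes after Ndufa4, was at 565 and 249 CPM in the TAL and 235 and 79.3 in PT. It was higher in the TAL (0.65 ± 0.15) and lower in PT (-0.74 ± 0.16). Ndufs4, an accessory subunit on the peripheral arm, was higher in DCT (0.50 ± 0.17, adjusted p = 0.027) and in the TAL (0.49 ± 0.15), and lower in CD-PC (-0.57 ± 0.16) and TL (-0.63 ± 0.18).

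Ndufs5 and Ndufb4 were both higher in the TAL, and both windows hold the string of estrogen-related receptors and that of NRF1. The stretches cover chr4:123718250-123718436 for Ndufs5 and chr16:37654369-37654584 for Ndufb4.
Ndufs5: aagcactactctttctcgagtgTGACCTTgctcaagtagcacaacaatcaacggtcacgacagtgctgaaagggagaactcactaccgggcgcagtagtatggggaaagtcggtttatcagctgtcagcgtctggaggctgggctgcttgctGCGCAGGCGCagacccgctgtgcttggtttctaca
Ndufb4: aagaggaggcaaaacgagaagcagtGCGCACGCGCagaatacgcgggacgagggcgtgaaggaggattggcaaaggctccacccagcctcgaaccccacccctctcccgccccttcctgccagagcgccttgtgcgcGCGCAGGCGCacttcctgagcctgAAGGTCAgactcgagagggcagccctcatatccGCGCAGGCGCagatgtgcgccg

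Complex II, succinate dehydrogenase, joins the chain to the citric acid cycle, and all of its 4 subunits are nuclear. None of them (0 of 4) was called in PT, where the other complexes were mostly lower. Sdhb, the iron-sulfur subunit (chr4:140961271-140979198), was at 301 and 146 CPM in DCT and 272 and 148 in the TAL of control mice 1 and 2, against 131 and 76.0 in CD-PC and 195 and 86.3 in TL. Within each mouse, DCT and TAL lay above CD-PC and TL. Sdhb was higher in DCT (0.55 ± 0.18) and the TAL (0.46 ± 0.15) and lower in CD-PC (-0.83 ± 0.17, adjusted p = 6.8e-06) and, near the threshold, in TL (-0.48 ± 0.19, adjusted p = 0.047). Sdha, the flavin subunit that oxidizes succinate, was lower in CD-PC (-0.48 ± 0.16) and TL (-0.50 ± 0.18). Sdhc, a membrane anchor, was called in 0 of the 7 classes.

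Sdhd, the other membrane anchor (chr9:50596340-50603849), was at 168 and 134 CPM in CD-IC of the control mice. In the other 6 tubule classes it lay between 72.0 and 131 in control mouse 1 and between 48.6 and 75.5 in control mouse 2. CD-IC were thus highest in both mice (log2 difference 0.78 ± 0.19, adjusted p = 4.6e-04), and the knockout mice had 238 and 136 CPM there. Its window holds an NRF1 and an ETS string in the 104 bases before the start (chr9:50603864-50603953), and, outside the stretch printed, the estrogen-related receptor string as well.
Sdhd: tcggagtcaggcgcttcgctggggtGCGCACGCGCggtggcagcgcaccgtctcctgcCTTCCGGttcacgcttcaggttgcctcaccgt

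**Figure D3:**
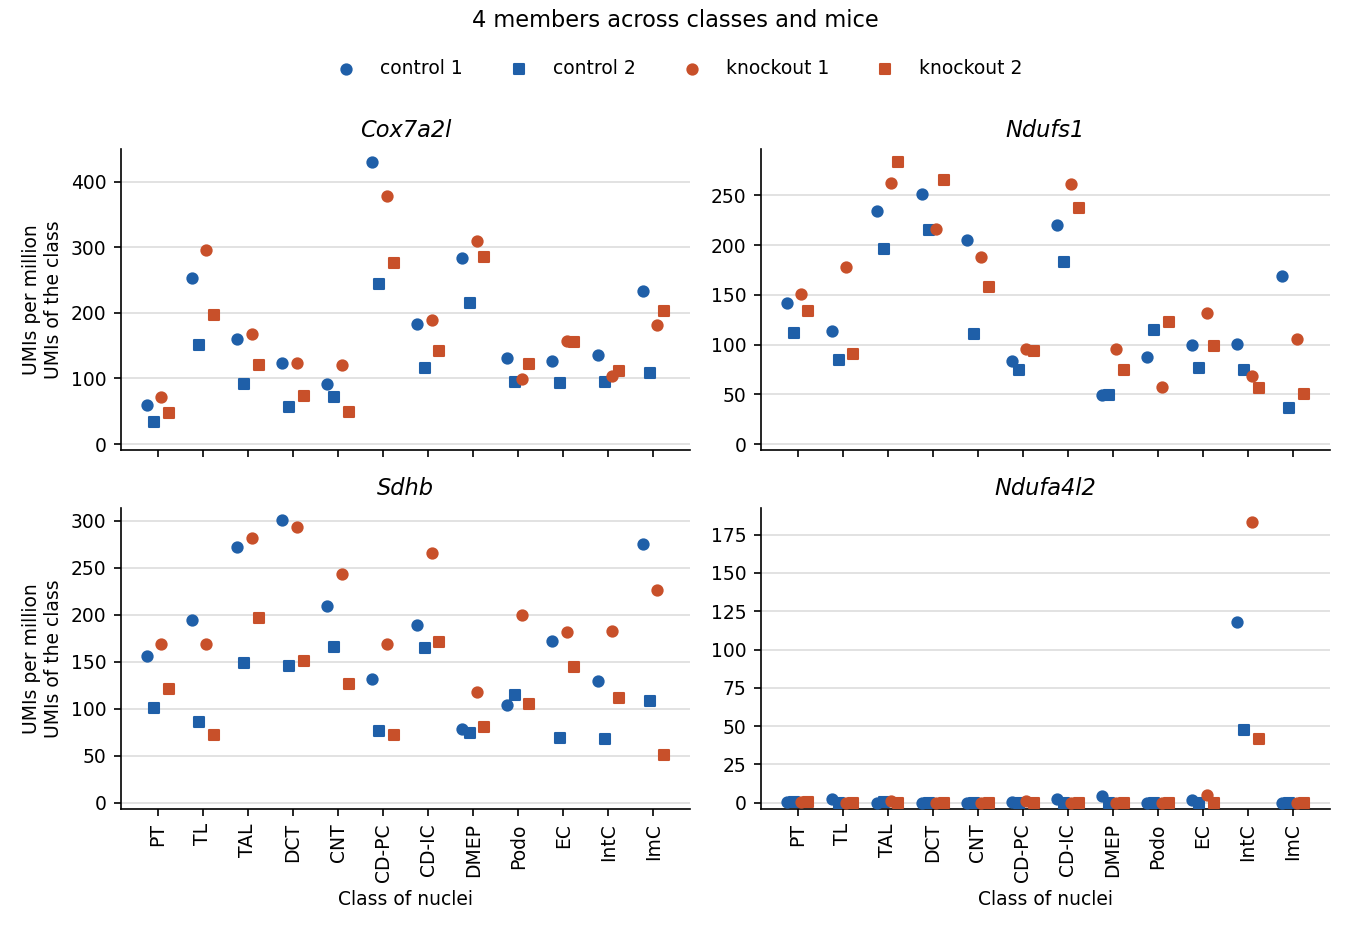
CPM (UMIs scaled to 1000000 UMIs of the class) for Cox7a2l, Ndufs1, Sdhb and Ndufa4l2 in 12 classes, with 1 point per mouse (blue control, orange knockout; circle mouse 1, square mouse 2). Cox7a2l was highest in CD-PC and Ndufs1 in TAL, DCT and CD-IC of the control mice, and Ndufa4l2 was at 41.9 to 183 CPM in IntC and at most 4.75 elsewhere.

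In complex III, the large core proteins Uqcrc1 and Uqcrc2 were lower in TL (-0.85 ± 0.23 and -0.61 ± 0.19) and in CD-PC (-0.62 ± 0.18 and -0.42 ± 0.16) and higher in the TAL (0.42 ± 0.15 and 0.40 ± 0.15). Uqcrc1 was at 99.2 and 77.5 CPM in the TAL and 52.7 and 47.7 in CD-PC, with PT between them at 65.7 and 51.6. The small subunits Uqcrh and Uqcrb were lower in PT (-1.02 ± 0.17 and -0.94 ± 0.16) and higher in CD-PC (0.37 ± 0.15 and 0.41 ± 0.15). In CD-IC Uqcrb stood out, with 603 and 326 CPM, and was higher (0.72 ± 0.16, adjusted p = 1.1e-04). Uqcr10, another small subunit, was lower in PT (-0.41 ± 0.16) and higher in the TAL (0.39 ± 0.15), and Uqcrq was higher in CNT (0.50 ± 0.17, adjusted p = 0.037). The call of Uqcrq was lost under 6 alternatives, among them no TMM and PT left out of the mean.

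Complex IV, cytochrome c oxidase, has subunits with tissue-restricted isoforms. Cox7a2l, which is known to join complexes III and IV in a supercomplex, had both the highest and the lowest log2 difference among the 74 members with at least 300 UMIs. Its gene lies on chr17:83501917-83514333. It was at 430 and 244 CPM in CD-PC of control mice 1 and 2 and 378 and 276 in the knockout mice, against 59.6, 34.3, 71.3 and 47.9 in PT of the same mice. Empty droplets held 223, 210, 249 and 295 CPM. CD-PC lay above PT in each mouse without overlap, with log2 differences in control mice of 1.61 ± 0.14 in CD-PC (adjusted p = 5.2e-29), 0.63 ± 0.17 in TL, -0.64 ± 0.22 in CNT and -1.31 ± 0.16 in PT. The call in CNT was lost under 6 alternatives, among them the omission of called doublets. Within CD-PC, inner medullary nuclei held 496 and 299 CPM in the control mice and nuclei with the sodium channel 208 and 161, and the knockout mice had 511 and 326 against 200 and 177. The level of Cox7a2l was thus higher in the inner medullary CD-PC of all 4 mice.

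Cox7b was lower in PT (-1.06 ± 0.17) and TL (-0.72 ± 0.18) and higher in the TAL (0.62 ± 0.15) and CNT (0.67 ± 0.16). Cox8a and Cox5a, common subunits of complex IV, were lower in PT (-0.87 ± 0.18 and -0.62 ± 0.16) and higher in CD-PC (0.52 ± 0.16 and 0.46 ± 0.15). The liver-type isoforms Cox6a1 and Cox7a2 and the common isoform Cox6b1 were all lower in PT, at -0.74 ± 0.16, -0.58 ± 0.16 and -0.67 ± 0.16. These are the forms that most tissues use.

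The muscle-type isoforms were scarce. Cox6a2, of heart and skeletal muscle, was the only complex IV member called higher in PT (adjusted p = 2.0e-05 by edgeR), with 5.52 and 2.47 CPM there and 0 UMIs in DCT, CNT and CD-PC of both control mice. Its UMIs lay in the S1 segment of PT, at 15.4 and 10.2 CPM in control mice and 14.9 and 6.48 in knockout mice, against 3.19 and 0.88 in S2 and 0.89 and 0 in S3 of the control mice. Empty droplets held Cox6a2 at 14.4 and 3.75 CPM in control mice 1 and 2, near the level of S1 in mouse 1, and the part of free RNA in these values was not tested. The limit that a count of 0 allows, 3 UMIs, was 6.503 and 9.49 CPM in DCT and 2.17 and 1.57 in CD-PC of the control mice.

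Cox7a1, the muscle form of subunit 7a, was counted 12 and 10 times in CD-IC of control mice 1 and 2, or 26.1 and 22.6 CPM, and was called higher (adjusted p = 7.3e-04 by edgeR). No fold is given for these isoforms because some classes were at 0. Empty droplets held Cox7a1 at 23.6 and 21.8 CPM, close to CD-IC. In DCT it was called lower with 0 UMIs in both mice, at most 6.503 and 9.49 CPM, and there the knockout mice had 4 and 3 UMIs. Nuclei of CD-PC with the sodium channel held 25.2 and 21.2 CPM, and inner medullary CD-PC 0.94 and 2.60. Cox4i2, Cox6b2, Cox7b2 and Cox8b were at most at 15.8 CPM in every tubule class of the control mice and were called in 0 of the 7 classes. Ndufa4l2, known as a hypoxia-induced relative of the complex IV subunit Ndufa4, was at 118 and 47.6 CPM in IntC of control mice, from 20 and 7 UMIs, and at 183 and 41.9 in knockout mice, from 16 and 3 UMIs. IntC were not part of the test across tubule classes. Ndufa4 itself was lower in PT, close to the threshold (-0.37 ± 0.16, adjusted p = 0.048), and passed the test in 0 of the other 6 classes.

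Complex V, the ATP synthase, had 12 of 17 members lower in PT and 8 higher in the TAL. Of all genes, 17.9% were lower in PT and 13.5% higher in the TAL. Atp5b, the catalytic beta subunit, was at 918 and 537 CPM in the TAL, 537 and 463 in CD-PC and 509 and 288 in PT of the control mice. It was higher in the TAL (0.40 ± 0.15, adjusted p = 0.046) and lower in TL (-0.67 ± 0.18, adjusted p = 0.0015), and in PT it did not pass the test (-0.33 ± 0.16, adjusted p = 0.085). Atp5a1, the alpha subunit, was lower in PT (-0.40 ± 0.16, adjusted p = 0.032). The 3 genes of the membrane ring subunit c, Atp5g1, Atp5g2 and Atp5g3, were all lower in PT (-0.91 ± 0.17, -0.83 ± 0.16 and -0.79 ± 0.16). They parted elsewhere: Atp5g1 and Atp5g3 were higher in the TAL (0.54 ± 0.15 and 0.48 ± 0.15) and Atp5g2 in CD-PC (0.47 ± 0.15). Atp5h, of the peripheral stalk, was at 94.8 and 44.2 CPM in PT against 282 and 180 in CD-PC, with log2 differences of -1.09 ± 0.16 and 0.62 ± 0.15. Both rows of Atp5o, also a stalk subunit, were lower in CD-PC (-0.60 ± 0.22 and, at the threshold, -0.89 ± 0.38), and the more counted row was higher in the TAL (0.72 ± 0.18). The window of Atp5h also holds an NRF1 and an ETS string (chr11:115419926-115420085), in a gene whose level was lower in PT and higher in CD-PC.
Atp5h: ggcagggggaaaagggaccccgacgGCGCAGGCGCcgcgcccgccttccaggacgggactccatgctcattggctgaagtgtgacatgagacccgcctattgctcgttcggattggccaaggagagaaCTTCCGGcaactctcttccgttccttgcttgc

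Over the 7 tubule classes, 64 of 81 members had their lowest level in PT. The class with the highest level was CD-IC for 22 members, CD-PC for 22, the TAL for 17, TL for 7, DCT and CNT for 6 each and PT for 1. Members differ in gene length, from 0.932 to 105 kb with a median of 7.28 kb. Across the 81 members, the log2 difference in PT had a Spearman's rho of 0.337 with gene length (Pearson's r 0.111), and that in CD-PC a rho of -0.284 (r -0.244). Shorter genes tended to be lower in PT, with a median of -0.70 up to the median length and -0.38 above it; the part of gene length in the contrasts was not tested. The points are genes of the same 2 libraries.

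The members were set beside other gene lists, described by counts and medians. Of all genes, 28.8% were higher and 17.9% lower in PT, 13.5% and 7.11% in the TAL, and 22.0% and 14.2% in CD-PC. In TL 10.6% were higher and 8.27% lower, and in DCT 7.46% and 5.07%. Of the genes of the citric acid cycle, which feeds the chain with NADH and succinate, 8 of 14 were higher in the TAL, and 11 were lower in CD-PC and 7 in TL. Cytosolic ribosomal proteins, encoded by short and strongly expressed genes, were lower in PT (63 of 80, median -0.74) and DCT (35 of 80) and higher in CD-PC (67 of 80, median 1.30) and TL (60 of 80). Of the mitochondrially encoded subunits, 7 of 13 were called higher and 1 lower in PT, where 28.8% of all genes were higher. Their median there was 0.36, beside 0.25 for the median gene. They summed to 16809 and 7164 CPM in PT of control mice 1 and 2, below the 19059 and 8672 CPM of the TAL. In control mouse 1 their sum in PT was also below that in DCT (18474 CPM), CD-IC (17507) and CNT (16857). In control mouse 2 DCT, CD-IC and CNT lay below PT, at 6345, 6929 and 6441 CPM. Of the genes of glycolysis, 12 of 17 were lower and 2 higher in PT, and 9 were higher and 2 lower in CD-PC. Of 10 mitochondrial carriers, 6 were lower in PT and 0 higher. Of 43 assembly factors, 11 were lower and 4 higher in PT, with a median of 0.005. In the TAL 10 of them were higher and 0 lower. Most members, ribosomal proteins and genes of glycolysis were thus lower in PT than in the other tubule classes.

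**Figure D4:**
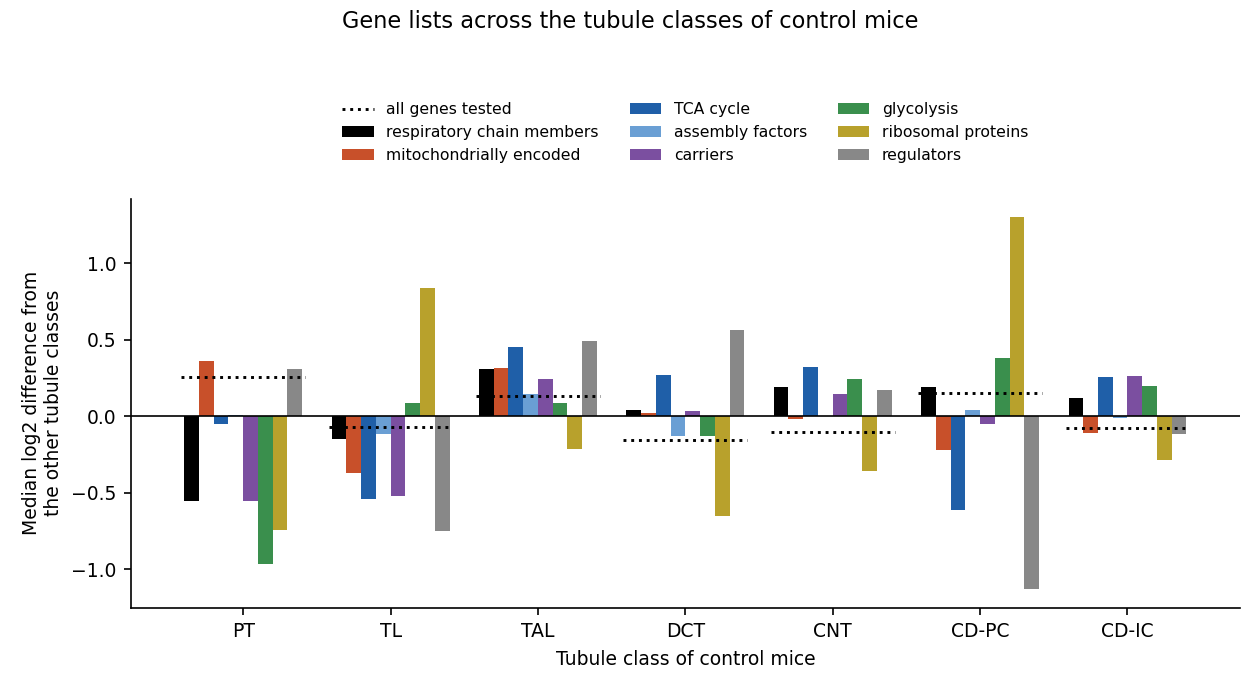
Median log2 difference from the other 6 tubule classes over the genes of each list in control mice (bars), with the median over all genes tested as a dotted line. The members lay under the line of all genes in PT and over it in the TAL, while ribosomal proteins reached 1.30 and regulators -1.13 in CD-PC.

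Of 12 regulators of mitochondrial genes, 6 were higher and 0 lower in the TAL, and 7 were lower and 2 higher in CD-PC. Of all genes, 13.5% were higher in the TAL, and 14.2% were lower and 22.0% higher in CD-PC. Ppargc1a, a coactivator that drives mitochondrial biogenesis, was at 2048 and 1937 CPM in the TAL of the control mice and 178 and 252 in CD-PC (log2 differences 1.97 ± 0.14 and -1.84 ± 0.20), and it was lower in PT as well (-1.46 ± 0.18). Esrrb, an estrogen-related receptor, was at 735 and 601 CPM in the TAL and 798 and 684 in DCT, against 16.6 and 6.81 in CD-PC. Ppara, a receptor that drives fatty acid oxidation, was highest in PT at 307 and 369 CPM (3.07 ± 0.13). In PT 6 of the 12 regulators were higher, while 52 of 81 members were lower. Of all genes, 28.8% were higher and 17.9% lower there.

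Whether the loss of Tfap2a changed these genes was tested in each class between 2 knockout and 2 control mice (edgeR's quasi-likelihood test, adjusted over all genes of the class). In CD-PC 0 of 76 members were called, with 0% of all 13555 genes called, and in CD-IC 0 of 75, with 0% of all genes. At an unadjusted p under 0.05 there was 1 member in each of these classes, and DESeq2 also called 0. In the other 10 classes 0 members were called as well, beside 0.00563% of all genes in PT, 0.0135% in the TAL, 0.0258% in EC and 0% in TL, DCT, CNT, DMEP, Podo, IntC and ImC. The smallest adjusted p of a member was 0.899, in DMEP. The median standard error of a member's log2 fold change was 0.33 in CD-PC and 0.42 in CD-IC, which limits the size of a shift that 2 mice against 2 can show.

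Ndufa9, an accessory subunit of complex I, was at 60.0 and 53.4 CPM in control and 79.2 and 77.8 in knockout CD-PC (log2 fold change 0.47 ± 0.26), both knockout mice above both controls. Ndufa12, another accessory subunit, was at 116 and 47.7 in control and 132 and 118 in knockout CD-PC (0.62 ± 0.37). Neither passed the test in any class after adjustment (0 calls). Outside the collecting duct, Ndufa12 was at 78.8 and 59.6 in control and 174 and 122 in knockout TL (1.08 ± 0.36) and at 65.7 and 25.6 in control and 111 and 111 in knockout DMEP (1.43 ± 0.48), and Ndufa9 was at 46.8 and 23.9 in control and 87.1 and 69.4 in knockout EC (1.11 ± 0.37). The groups did not overlap in these 3 cases, and none passed the adjusted test. Both knockout mice lay above both controls for 1510 of all 11220 genes in TL, 1332 of 10220 in DMEP and 1594 of 11641 in EC. Among members the counts were 6 of 75, 10 of 72 and 9 of 75. Empty droplets held Ndufa12 at 166 and 62.2 CPM in control and 180 and 226 in knockout mice, so that the groups did not overlap in the free RNA either, and its part in these values was not tested. Ndufa9 was at 132 and 114.3 in control and 150 and 97.0 in knockout empty droplets, with overlap.

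Lower in the knockout CD-PC, without passing the test, were Ndufb8 and Ndufa1. Ndufb8 was at 156 and 150 CPM in control mice and 139 and 91.2 in knockout mice (-0.41 ± 0.29). Ndufa1, an accessory subunit, was at 139 and 145 in control and 131 and 96.6 in knockout mice (-0.32 ± 0.27). In CD-IC Cox7a1 had the smallest p, with 12 and 10 UMIs in control and 4 and 2 in knockout mice, or 26.1 and 22.6 against 8.43 and 5.04 CPM (-1.77 ± 0.62, unadjusted p = 0.017, adjusted p = 1.00 by edgeR). The level of Cox7a1 in empty droplets of the knockout mice was 23.0 and 36.6 CPM, above their CD-IC. Atp5f1, of the peripheral stalk, was at 568 and 326 in control and 875 and 421 in knockout CD-IC (0.56 ± 0.45), with overlap of the groups.

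Both knockout mice lay above both controls for 8 of 76 members in CD-PC and below them for 3, where 14.0% and 13.2% of all genes did so. In CD-IC the counts were 3 and 1 of 75, beside 13.6% and 12.9%. The members' shares were 10.5% and 3.95% in CD-PC and 4.00% and 1.33% in CD-IC. With 2 mice against 2, an exact two-sided permutation test of a single value cannot go below p = 0.33.

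**Figure D5:**
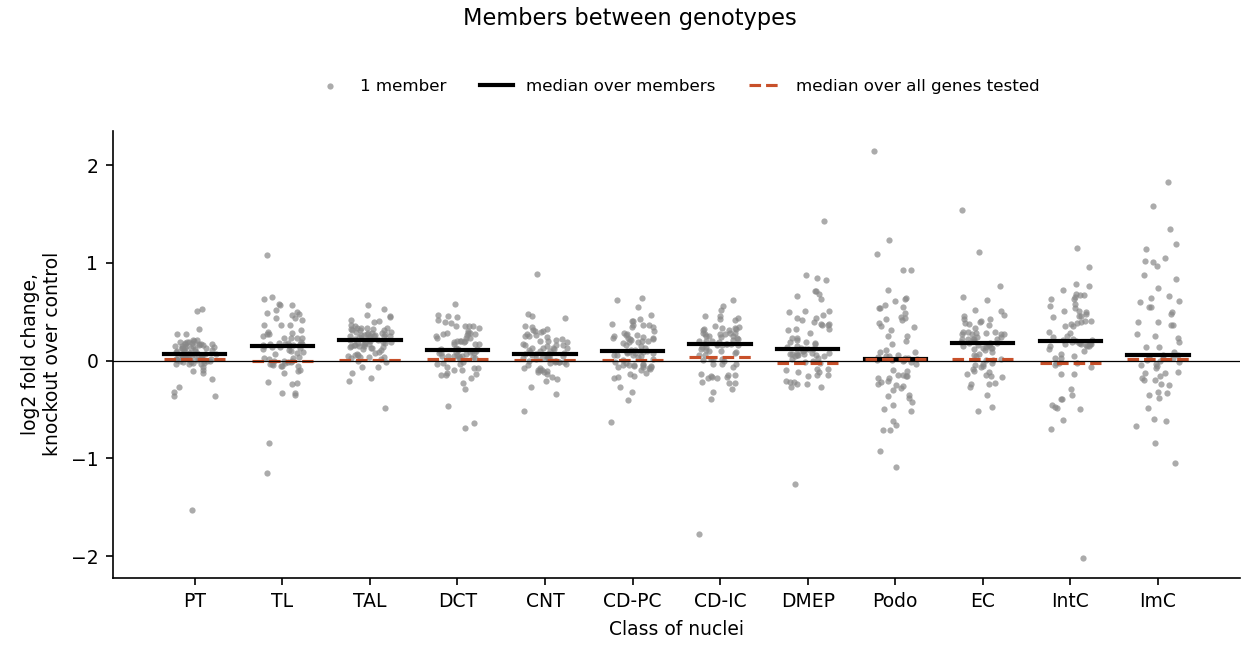
Log2 fold change of each tested member between knockout and control mice in 12 classes (grey points), with the median over members (black line) and over all genes tested (dashed line). Member medians lay between 0.02 and 0.21, and 0 members passed an adjusted p of 0.05.

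The median member was above 0 in all 12 classes, from 0.02 in Podo to 0.21 in the TAL, and at 0.10 in CD-PC and 0.17 in CD-IC. The classes share their 4 libraries, so these medians are not independent. In the TAL the median gene was at 0.00. The mitochondrially encoded subunits had medians on the other side, at -0.79 in CD-PC, -0.70 in CD-IC, -0.74 in PT and -0.51 in the TAL, with 0 of 13 called in each of these classes. They summed to 14510 and 6633 CPM in CD-PC of the control mice and 9005 and 3406 in knockout mice, so the groups overlapped. In PT, outside the Cre domain, the sums were 16809 and 7164 against 9446 and 4852. The median mitochondrial share of nuclei differed between libraries, from 0.417% to 1.66%, and its part in these medians was not tested.

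A change in the collecting duct that exceeded that of the proximal tubule was tested as the difference of the log2 fold changes in CD-PC and PT. Of 76 members, 0 were called and 0 had an unadjusted p under 0.05, beside 0.00757% of 13215 genes called. The median difference of the members was 0.03, with a median standard error of 0.33, which limits the size of a difference that this test can show.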

How the data were processed

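Members and gene lists were chosen with earlier results of these data known. Per the labels and the study's methods, the authors aligned 10x Genomics 3′ reads to mm10 with Cell Ranger 3.0.2 and deposited raw UMI counts per barcode for 4 libraries, each of 1 mouse. From each library, the 10000 largest barcodes were filtered as the study's methods state (over 500 and under 4000 genes, under 5% mitochondrial UMIs, genes in at least 3 nuclei). Nuclei were clustered with Seurat 5.3.0 without the members and mitochondrial genes and named by markers. Clusters of damaged nuclei, of mixed markers or without a name entered no class, and called doublets were kept except in an alternative. Raw counts were added up over the nuclei of each class in each mouse and compared by edgeR 4.0.16 (R 4.3.3; TMM, quasi-likelihood, genes with at least 10 UMIs, Benjamini-Hochberg over all genes, adjusted p under 0.05). Error is the SE of the log2 fold change. Named members are, per complex, the 2 with most UMIs, the Sdh genes, tissue-restricted isoforms, the largest called changes per contrast in the same direction in both control mice, and, where none was called, those with the smallest p. The use of gene length, the core of complex I and the choice of printed promoter stretches were added after seeing the data. Alternatives included DESeq2 1.42.0, other filters, scalings and free-RNA subtraction. The tests were checked on simulated data with a set scatter. Of planted 2-fold changes, 51% were recovered in PT among segments, 25% between genotypes in the TAL and 20% in CD-PC. For the difference of CD-PC and PT it was 2%. Of 4-fold changes, 100%, 96%, 93% and 24% were recovered in the same order. The values of 1 member are not reported here.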

Additional observations from a re-analysis of the deposited data

How the results depend on the processing

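Of 270 recomputed counts of called members, 250 lay within 1.5 times the value reported and 20 did not. With only nuclei under 1% mitochondrial UMIs, 4 members were called in TL, 6 in the TAL, 1 in DCT, 0 in CNT and 0 in CD-IC (reported 19, 29, 4, 3 and 3). With free RNA subtracted by markers, 15 were called in the TAL, 1 in DCT, 0 in CNT and 22 in CD-PC (reported 36). Subtracting empty droplets, added after seeing the data, gave 5 in CD-IC. DESeq2 called 15 in the TAL, 6 in CNT and 6 in CD-IC, no TMM 10 in TL and 12 in CD-IC, filterByExpr 6 in CNT and 6 in CD-IC, no filter 1 in CNT, and a resolution of 0.8 called 5 in CD-IC. PT had 38 to 71 called (reported 54). The cause of these shifts was not tested. The mitochondrial filter left fewer nuclei, and not evenly. The median mitochondrial share was 1.66% in control mouse 1 and 0.671% in control mouse 2, so most nuclei were removed in the former and kept in the latter. Between genotypes, leaving out 1 mouse gave 0 to 1 members called in DMEP, the 1 call being without control mouse 1. For the segments, leaving out a control mouse left 1 mouse and so values with no test.

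For 40 named members and classes, 465 of 518 recomputed tests kept direction and side of the threshold, 53 lost the call, and 0 reversed. Most often lost were Atp5o in CD-PC, Uqcrq and Cox7a2l in CNT, and Ndufs5 in CD-PC.

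With the replicate number as a block, 0 members were called between genotypes in any class. The labels do not say what the numbers share, and the same-numbered mice's deviations correlated at 0.033 to 0.525 over the classes, with 2 pairs.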
